A study of Mus musculus with 9 samples.

Results

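Cathepsins are mainly proteases of the lysosome, and 8 of their genes were followed across wild-type and nicastrin-deficient bone marrow progenitors. They were taken by gene symbol alone: Ctsa, Ctsb, Ctsd, Ctse, Ctsh, Ctsk, Ctsl and Ctsz, which have 18 of the 45037 probe sets on the array other than controls and are 8 of the 18193 genes that could be tested. A probe set is a group of short probes read as 1 measurement, and values are log2 of its deposited intensity unless stated otherwise. Every gene is represented by its brightest probe set, and the remaining probe sets are given beside it.

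Each group had 3 arrays. The NcstnKO GMP group came from Ncstn flox/flox Mx1-cre+ mice, the WT GMP group from Ncstn flox/flox littermates without Cre, and the WT LSK group from mice of the same Ncstn flox/flox genotype. GMP, granulocyte-monocyte progenitors, were sorted as cKit-positive cells with CD34 and FcγRII/III but neither lineage markers nor Sca1, and LSK, the fraction with stem and multipotent cells, as cKit-positive cells with Sca1 and no lineage markers. All mice, controls included, carried the floxed alleles, received 3 injections of polyIC at 20 µg per g from the age of 14 days, and were examined after 4 more weeks, when 6 weeks old. The Mx1 promoter that drives Cre responds to interferon and is active in many cell types besides progenitors, and since only the knockouts carried Cre, its own effect cannot be told apart from the loss of nicastrin.

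Most lysosomal cathepsins are made as inactive precursors, tagged with mannose 6-phosphate, carried to acid compartments and activated there by removal of a propeptide. Cathepsins B, H, K, L and Z use a cysteine in the active site, cathepsins D and E an aspartic acid pair, and cathepsin A a serine. In the myeloid lineage they digest ingested proteins and process granule enzymes and antigens, and the stefins and cystatins block the cysteine enzymes.

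The labelled genotype was seen in the targeted gene. Ncstn, the nicastrin gene, read 7.79, 7.78 and 7.76 in NcstnKO GMP, against 9.25, 9.31 and 9.26 in WT GMP (log2 difference −1.50, SE 0.08, limma adjusted p = 0.000287). Signal remained in NcstnKO GMP, at 0.354 of the WT level and above background on every array, and its source was not tested. The sex transcripts Xist and Eif2s3y went against the labelled sex on 4 arrays, namely arrays 2 and 3 of both GMP groups. By transcripts all 3 NcstnKO arrays were female while WT GMP held 1 female and 2 male arrays; by labels NcstnKO held 1 female and 2 male arrays and all 3 WT GMP arrays were female. Sex was thus unbalanced between the genotypes either way, which bears on every comparison of NcstnKO with WT GMP. The Ncstn values above separated the genotypes as labelled on every GMP array, and how the sex mismatch arose was not tested. Of 7 primary granule and GMP markers measured, all 7 were higher in WT GMP than in LSK, and of 9 LSK and stem cell markers all 9 were lower. Over all genes 7.48% were higher and 30.5% lower. Lower in WT GMP, too, were 10 of 11 late neutrophil, 6 of 7 B lymphoid and 5 of 8 T and NK markers. Of the T and NK markers 1 was higher, as were 5 of 7 monocyte and 7 of 8 mast cell, basophil and eosinophil markers. The part of such cells in the differences from LSK was not tested. Kit, which both sorts select for, averaged 10.82 in NcstnKO GMP, 11.08 in WT GMP, with 11.56 in LSK. Ly6a, which encodes Sca1, was not analysed here. The median intensity of an array was 65.4 to 67.9 in NcstnKO GMP, 67.3 to 68.6 in WT GMP, with 98.3 to 102.6 in LSK, so comparisons with LSK depend on the scaling. The Actb 3′ probe set exceeded the 5′ one, which falls with shortened RNA, by 0.899 ± 0.14 in NcstnKO GMP and 0.577 ± 0.111 in WT GMP (log2 ratio, SD, n = 3 each; the exact permutation test, 2-sided, gave p = 0.1, and groups of 3 can give no smaller one). Its part in the results below was not tested beyond its use as a covariate.

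The promoter windows of members that passed the test in at least 1 comparison are shown, as far as the table of windows used here holds them, because lysosomal genes are known to share a short E-box element, bound by the MITF and TFE family of transcription factors. RefSeq windows on GRCm38.p6, from 250 bases before to 50 bases after a gene start, were found in it for 5 of the 8 members, all but Ctsb, Ctse and Ctsh. They are read along the gene's own strand, with capitals marking CACGTG, the E-box core, which reads the same on both strands. The windows are chr2:164833523-164833822, plus strand, for a Ctsa start, chr7:142387778-142388077, minus strand, for Ctsd, chr13:64370471-64370770, minus strand, for Ctsl, and chr2:174438990-174439289, minus strand, for Ctsz. In order of gene name they read:
Ctsa: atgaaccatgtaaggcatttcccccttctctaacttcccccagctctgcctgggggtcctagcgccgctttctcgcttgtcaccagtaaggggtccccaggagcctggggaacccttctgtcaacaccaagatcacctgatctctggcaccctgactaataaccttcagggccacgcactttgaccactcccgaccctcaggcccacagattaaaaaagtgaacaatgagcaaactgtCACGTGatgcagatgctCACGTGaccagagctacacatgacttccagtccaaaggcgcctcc
Ctsd: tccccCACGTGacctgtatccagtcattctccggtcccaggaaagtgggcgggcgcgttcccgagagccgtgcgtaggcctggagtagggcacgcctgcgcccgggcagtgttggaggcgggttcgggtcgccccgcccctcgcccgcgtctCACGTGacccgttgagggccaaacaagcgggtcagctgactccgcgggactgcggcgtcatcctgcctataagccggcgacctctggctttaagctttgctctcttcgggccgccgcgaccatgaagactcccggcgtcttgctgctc
Ctsl: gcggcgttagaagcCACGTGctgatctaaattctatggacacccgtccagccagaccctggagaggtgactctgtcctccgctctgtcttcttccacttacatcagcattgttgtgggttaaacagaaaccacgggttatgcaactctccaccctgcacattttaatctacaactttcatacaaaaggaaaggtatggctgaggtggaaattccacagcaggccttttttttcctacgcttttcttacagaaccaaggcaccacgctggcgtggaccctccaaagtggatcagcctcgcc
Ctsz: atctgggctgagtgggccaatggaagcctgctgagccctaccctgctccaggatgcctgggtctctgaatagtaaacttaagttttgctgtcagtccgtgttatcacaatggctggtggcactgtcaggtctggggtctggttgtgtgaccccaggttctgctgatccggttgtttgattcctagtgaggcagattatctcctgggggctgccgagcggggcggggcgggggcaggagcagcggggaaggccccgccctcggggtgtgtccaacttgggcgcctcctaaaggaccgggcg

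CACGTG occurred 2 times in this Ctsa window, beginning 12 bases before and at base 6 after the gene start. It occurred 2 times in the Ctsd window, beginning 245 and 98 bases before the start, and 1 time in the Ctsl window, 236 bases before it. The Ctsz window held none, nor did the Ctsk window or a second Ctsa window that is not shown. Of 32851 windows of this length, 7.15% held CACGTG. The longer TCACGTGA, which contains the core and also reads the same on both strands, was present in 0.974% of windows, and both Ctsa matches and the nearer Ctsd match lay within it. A match is a description of the letters in the window and no measure of binding.

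Setting NcstnKO against WT GMP asks which cathepsin transcripts differ in committed myeloid progenitors of the nicastrin knockout. Ctse fell to a level 1.52-fold lower in NcstnKO GMP, and it was the only member of the 8 that passed the test. The cysteine protease gene Ctsl stood 1.51-fold higher without passing, and the other 6 members lay within 0.25 of 0 on the log2 scale. That is 0 higher and 1 lower of 8, where 5.7% of all genes passed (2.44% higher, 3.26% lower), and the members' median difference was 0.09 against 0.06 over all genes. In 3 members, Ctsd, Ctse and Ctsl, the groups did not overlap, as in 31.9% of all genes.

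**Figure D1:**
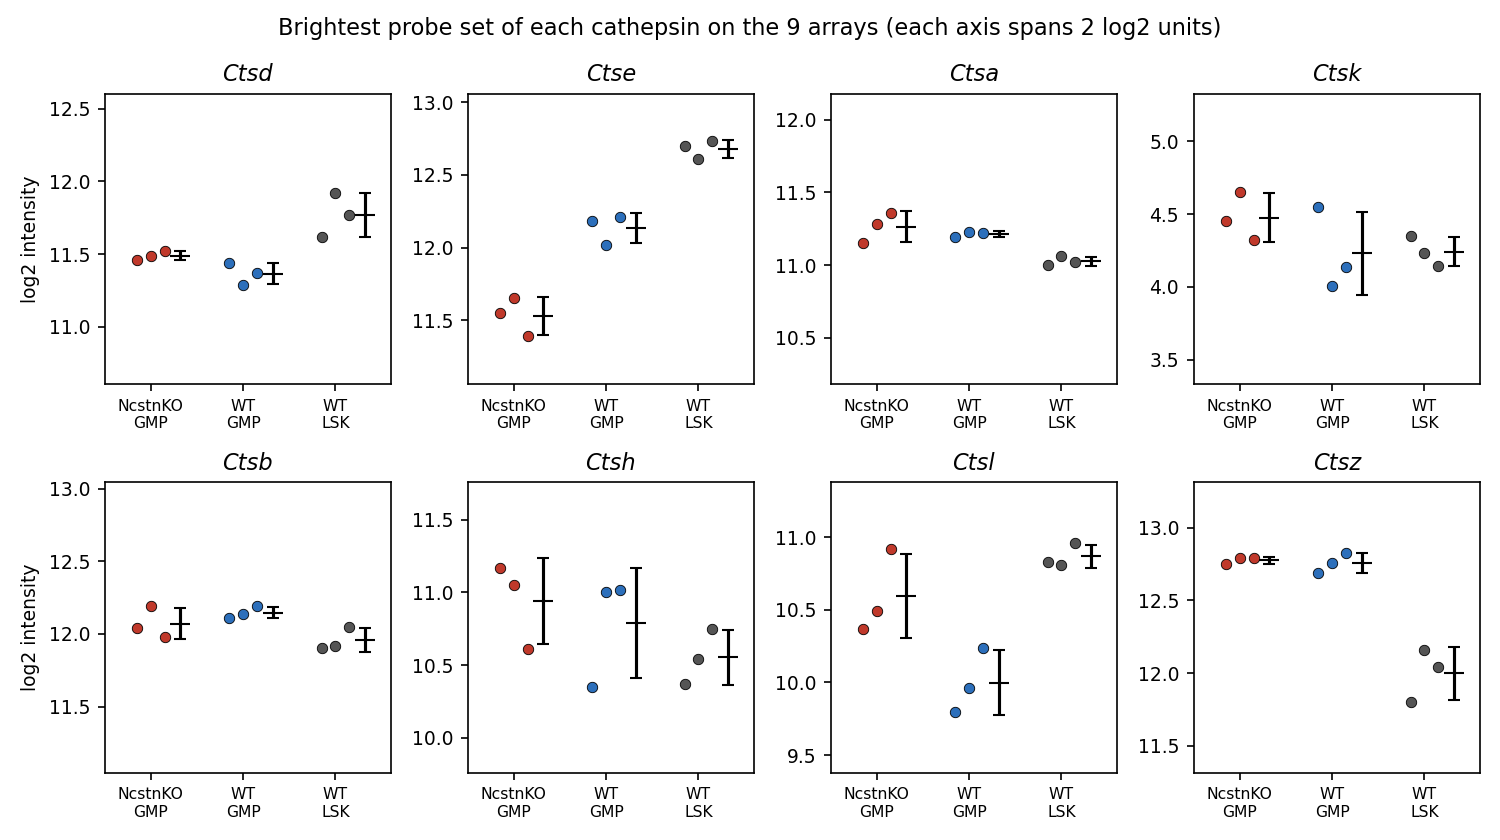
Log2 intensity of the brightest probe set of each cathepsin (y axis, spanning 2 log2 units in every panel) on the 9 arrays, with NcstnKO GMP in red, WT GMP in blue and WT LSK in grey; bars give the mean and SD of 3 arrays. Ctse has means of 11.53 in NcstnKO GMP, 12.14 in WT GMP and, highest, 12.68 in LSK, Ctsl is lowest in WT GMP, and the Ctsz arrays of both GMP groups lie above those of LSK.

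Ctse encodes cathepsin E, an aspartic protease held in endosomes more than in lysosomes, and known from red cells, lymphoid cells and stomach lining. Its brightest probe set read 11.55, 11.65 and 11.39 in NcstnKO GMP, 12.18, 12.02 and 12.21 in WT GMP, and 12.70, 12.61 and 12.73 in LSK. No array of a group overlapped with those of another, and all 3 knockout arrays were the lowest of the 9. The log2 difference of NcstnKO from WT GMP was −0.61 (SE 0.10, limma adjusted p = 0.0230), and 0.36 separated the highest knockout array from the lowest WT GMP array. WT GMP in turn stood below LSK by a log2 difference of −0.55 (SE 0.10, limma adjusted p = 0.00295). NcstnKO GMP stood at −1.15 relative to LSK (SE 0.10, limma adjusted p = 5.58e-05), a level 2.22-fold lower.

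The Ctse call between the GMP groups was lost without NcstnKO array 3 (adjusted p = 0.0571) or WT GMP array 3 (0.0975), when sex was added to the fit from labels (0.0886) or transcripts (0.0941), with the Actb ratio (0.332) and in a fit of the GMP groups alone (0.0523). The difference itself stayed at −0.59 with label sex, −0.64 with transcript sex, −0.61 with the Actb ratio and −0.61 in the GMP fit, and was −0.53 without NcstnKO array 3 and −0.57 without WT GMP array 3. On the single GMP arrays whose sex transcripts go with their labels the difference was −0.63 with adjusted p = 0.368, where each lone array is assumed to vary like the LSK group. A second, much dimmer Ctse probe set read 4.31 to 6.40 in NcstnKO GMP, with 1 array at background, and 4.38 to 5.22 in WT GMP. It gave 0.64 (SE 0.45, adjusted p = 0.479 over all probe sets), and with the mean of both probe sets the gene stood at 0.02. Calls were lost over all genes too, not only for Ctse. In the main fit 1037 of 18193 genes passed between the GMP groups. With label sex 2 passed, with transcript sex 2, with the Actb ratio 0 and in the fit of the GMP groups alone 6.

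Erythroid transcripts moved with Ctse. Of 13 erythroid markers measured, 7 fell and 0 rose in NcstnKO against WT GMP, where 3.26% of all genes fell. The median of these markers was −1.67 against 0.06 over all genes. Klf1, the erythroid transcription factor, read 8.31, 7.98 and 8.54 in NcstnKO GMP, against 10.78, 9.63 and 10.45 in WT GMP. The summed intensity of the list ran from 7698 to 12294 in NcstnKO GMP, from 17913 to 32715 in WT GMP, with 40581 to 49774 in LSK. The markers thus have the same order of groups as Ctse, and WT GMP array 2, the lowest WT array for Ctse, also had the lowest sum in its group. Within the knockouts the order differed, since array 3 had the lowest Ctse and the highest erythroid sum. Within LSK array 3 was highest in both, but Ctse was lowest on array 2 and the sum on array 1. Hba-a1 was at background in all 3 groups and Epb42 in NcstnKO GMP. Resident macrophage markers were also lower in part, with 4 of 12 falling, among them the complement genes C1qa and C1qc and the receptor gene Axl. Megakaryocyte and platelet markers fell in 3 of 6 (Vwf, Tubb1 and F2r), with a median of −0.47, and their sums were 4331 to 5641 in NcstnKO GMP, 5630 to 7296 in WT GMP, with 7916 to 9456 in LSK. These marker calls are from the main fit. With sex or the Actb ratio as a covariate, or with the GMP groups alone, at most 6 genes of any kind passed. Most of these marker calls were therefore lost there, as the Ctse call was. The part of any of these cell types in the Ctse difference was not tested, and in sorted bulk RNA fewer cells of a type cannot be told apart from less RNA per cell.

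Ctsd encodes cathepsin D, the main aspartic protease of lysosomes. It read 11.46, 11.49 and 11.52 in NcstnKO GMP, against 11.44, 11.29 and 11.37 in WT GMP. The groups did not overlap, but only 0.02 lay between them, and the log2 difference of 0.12 did not pass (95% interval −0.09 to 0.34, adjusted p = 0.466).

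Ctsa encodes cathepsin A, a serine carboxypeptidase that also protects β-galactosidase and the sialidase Neu1 in a complex. It read 11.15, 11.28 and 11.36 in NcstnKO GMP and 11.19, 11.23 and 11.22 in WT GMP, so the knockout arrays spanned the WT range (difference 0.05, 95% interval −0.13 to 0.23). A second Ctsa probe set, at 4.76 to 6.12 over all GMP arrays, differed by 0.06 (SE 0.36).

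Ctsl encodes cathepsin L, a cysteine endopeptidase. It read 10.37, 10.49 and 10.92 in NcstnKO GMP, 9.80, 9.96 and 10.24 in WT GMP, and 10.83, 10.81 and 10.96 in LSK. Every knockout array lay above every WT GMP array, and knockout array 3 reached the LSK range. The difference from WT GMP was 0.59 (SE 0.16, 95% interval 0.22 to 0.96), which missed the threshold over all genes (limma adjusted p = 0.0678). It passed without the dimmest 40% of genes (adjusted p = 0.0481) and in a fit with a replicate block (0.0484). A second, dimmer Ctsl probe set gave 0.44 (SE 0.35, adjusted p = 0.535 over all probe sets), with knockout arrays from 6.44 to 7.78 and WT arrays from 6.53 to 7.15.

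Late neutrophil markers had the same order of groups as Ctsl in their sums, though this order was not particular to them. Osteoclast markers, which share Mmp9 with this list, had sums of 1420 to 1837 in NcstnKO GMP and 1380 to 1644 in WT GMP. These overlapped between the genotypes, and LSK had 5050 to 7544. The summed intensity of 11 measured markers was 55920, 65917 and 64784 in NcstnKO GMP, 39583, 47115 and 51492 in WT GMP, and 80255 to 106723 in LSK. Within WT GMP both Ctsl and these markers were lowest on array 1 and highest on array 3, while within the knockouts the sum was highest on array 2 and Ctsl on array 3. Only 1 of the 11, the granule peptide gene Camp, passed between NcstnKO and WT GMP in the main fit (difference 0.81, adjusted p = 0.0389), and the list's median was 0.54 against 0.06 over all genes. With the Actb ratio as a covariate 0 genes passed, so the Camp call was lost there. Of 7 dendritic cell markers 0 passed, with a median of 0.53, and their sums overlapped between the genotypes, at 5749 to 9716 in NcstnKO GMP, 4137 to 8702 in WT GMP, with 11538 to 14467 in LSK. The part of later neutrophil or dendritic cells in the Ctsl values was not tested.

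Ctsb encodes cathepsin B, which cuts both within chains and from their ends. Its brightest probe set read 12.04, 12.19 and 11.98 in NcstnKO GMP, against 12.11, 12.14 and 12.19 in WT GMP, and the groups overlapped (difference −0.08, 95% interval −0.27 to 0.12). The other 4 Ctsb probe sets gave −0.47, −0.19, 0.25 and −0.23, and none passed when tested alone (adjusted p = 0.164 for the first of these).

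Ctsz encodes cathepsin Z, a cysteine carboxypeptidase also called cathepsin X. It read 12.75, 12.79 and 12.79 in NcstnKO GMP, against 12.69, 12.76 and 12.83 in WT GMP. The knockout arrays lay inside the WT range, and the difference was 0.01 with a 95% interval from −0.22 to 0.24. Its other 2 probe sets differed by −0.13 and −0.11 without passing.

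Ctsh encodes cathepsin H, an aminopeptidase of the lysosome. It read 11.17, 11.05 and 10.61 in NcstnKO GMP, 10.35, 11.00 and 11.02 in WT GMP, and 10.37, 10.54 and 10.75 in LSK. It had the widest spread of the 8 within both GMP groups, with SDs of 0.30 in NcstnKO and 0.38 in WT GMP beside medians over all genes of 0.15 and 0.12. Knockout array 3 and WT array 1 were the low ones, and the second Ctsh probe set placed the same arrays lowest, at 9.82 in NcstnKO against 10.27 and 10.33, and at 9.68 in WT against 10.19 and 10.27. The genotype difference was 0.16 with a 95% interval from −0.34 to 0.65. A pair of myeloid genes stood closest to Ctsh in their pattern over the arrays, Tyrobp, an adaptor of activating receptors, and Mpeg1, a pore-forming protein of phagocytes.

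The summed intensity of 7 monocyte markers was 26763, 26002 and 21490 in NcstnKO GMP and 21727, 28447 and 27884 in WT GMP. These sums were lowest on the same arrays as Ctsh, and 0 of the 7 markers passed between the GMP groups. The pairing of Ctsh with this list was chosen after their values were seen, and the part of monocyte precursors in the Ctsh spread was not tested.

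**Figure D2:**
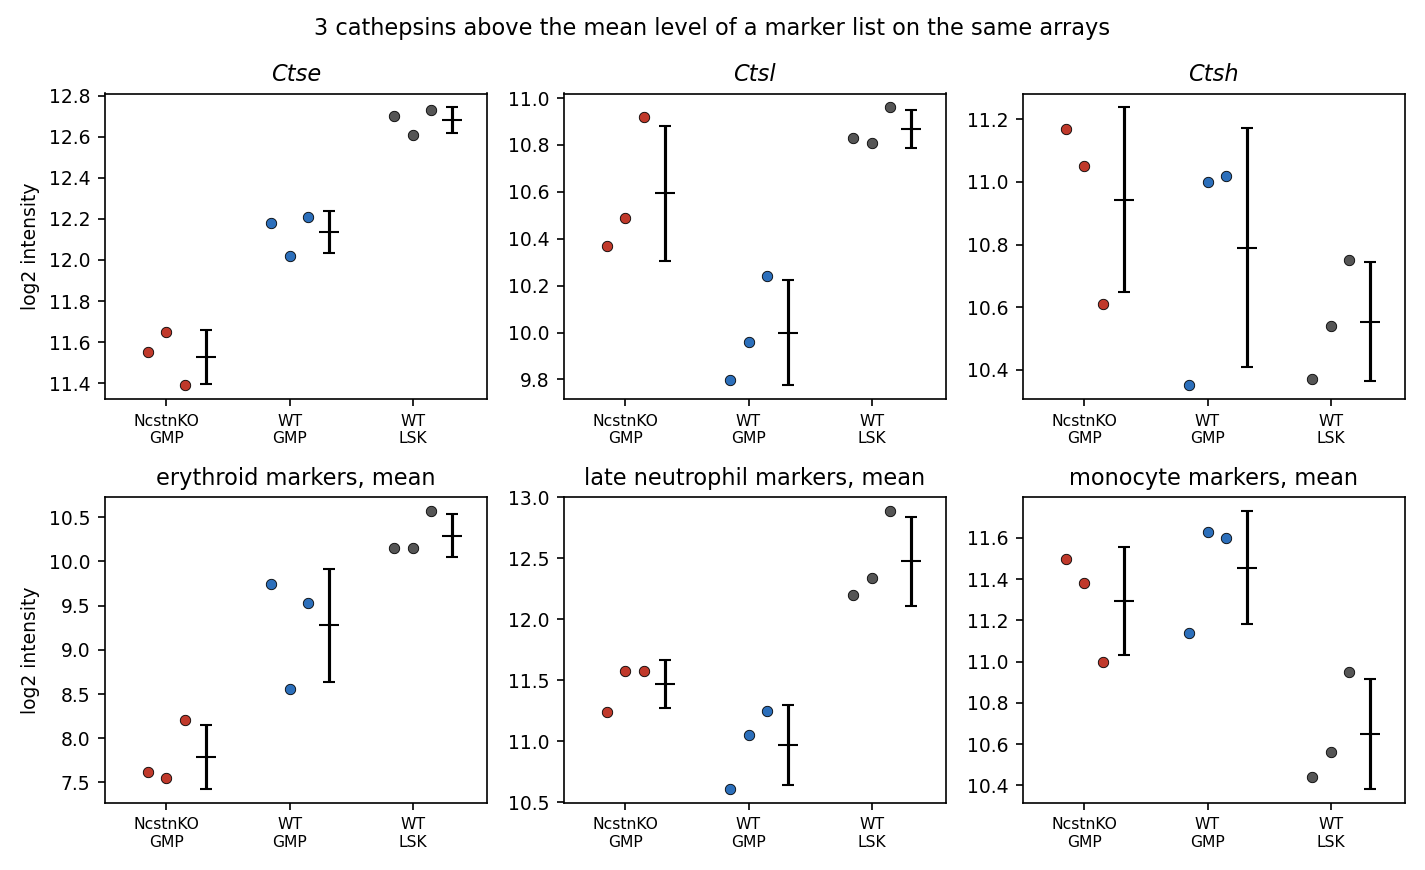
Log2 intensity (y axis) of Ctse, Ctsl and Ctsh on the 9 arrays in the upper row, and in the lower row the mean log2 intensity of the measured erythroid (13), late neutrophil (11) and monocyte (7) markers on the same arrays; bars give the mean and SD of 3 arrays. Ctse and the erythroid mean are lowest in NcstnKO GMP and highest in LSK, and WT array 1 and NcstnKO array 3 are low for both Ctsh and the monocyte mean.

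Ctsk encodes cathepsin K, the collagen-degrading protease of osteoclasts. It read 4.46, 4.66 and 4.32 in NcstnKO GMP, 4.55, 4.01 and 4.14 in WT GMP, and 4.35, 4.23 and 4.14 in LSK. The background limit, the level below which 95% of unspiked bacterial control probe sets lie on an array, was 4.33 to 4.57 in NcstnKO GMP, 4.30 to 4.39 in WT GMP, with 4.37 to 4.46 in LSK. WT GMP and LSK were at background and the knockouts close to it, so the fitted differences of this gene lie at or near background and are not read as changes. Of 8 osteoclast markers, 0 passed between NcstnKO and WT GMP. At background were 4 of the 8 in NcstnKO GMP and 3 in WT GMP, among them Dcstamp, needed for osteoclast fusion. Others lay well above it in NcstnKO and WT GMP: Nfatc1 averaged 9.39 and 9.46, Acp5 8.4 and 8.4, and Mmp9 9.14 and 8.53.

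The comparison of WT GMP with LSK asks how cathepsin transcripts differ between the committed myeloid progenitor and the stem and multipotent fraction. Ctsz was 1.70-fold higher in WT GMP, while Ctsl, Ctse and Ctsd were 1.82-fold, 1.46-fold and 1.32-fold lower. With 1 higher and 3 lower, 4 of 8 members passed, where 38% of all genes did (7.48% higher, 30.5% lower). The split depended on the scaling: quantile-normalized arrays gave 2 rises and 3 falls, and there were 3 higher (Ctsa, Ctsb and Ctsz) and 1 lower (Ctsl) after centring on the 75th percentile. The groups did not overlap in 6 members, as in 54.6% of all genes. The members' median difference was 0.09, and that of all genes was −0.18 on the deposited scale, 0.05 when arrays were quantile-normalized and 0.17 when each was centred on its 75th percentile.

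Ctsz had the smallest p of the 8 between these populations, and Ctsl the largest difference. The Ctsz WT GMP values were given above, and LSK arrays read 11.80, 12.16 and 12.04, so that 0.53 lay between the groups (difference 0.76, SE 0.10, limma adjusted p = 0.000727). All 3 Ctsz probe sets passed on their own, at 0.76, 0.64 and 0.67, and the knockout GMP level was 1.71-fold above LSK. The Ctsz difference was positive in each of the 19 alternatives and passed in 18, the exception being the fit on arrays whose sex transcripts go with their labels (0.69, adjusted p = 0.0869).

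Ctsl was lower in WT GMP by a log2 difference of −0.87 (SE 0.16, limma adjusted p = 0.00357), and 0.57 separated the highest WT GMP array from the lowest LSK array. It passed in all 19 alternatives, with values from −1.07 to −0.52. The dimmer Ctsl probe set gave −0.46 without passing (adjusted p = 0.345 over all probe sets). In NcstnKO GMP the difference from LSK was −0.27 and did not pass (95% interval −0.64 to 0.09), except without NcstnKO array 3, where it stood at −0.44 with adjusted p = 0.0365. The GMP groups share the LSK arrays in these comparisons.

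Ctsd averaged 11.37 in WT GMP, against 11.62, 11.92 and 11.77 on the LSK arrays, which all lay above the 3 WT GMP arrays (difference −0.40, SE 0.10, limma adjusted p = 0.0106). After centring on the 75th percentile the Ctsd difference was −0.05 (adjusted p = 0.656) and that of Ctse −0.20 (adjusted p = 0.142), so neither passed under that scaling. Ctsd also missed the threshold with label sex (adjusted p = 0.0682) or the Actb ratio (0.0699) as a covariate.

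Ctsa and Ctsb were slightly higher in WT GMP than in LSK without passing on the deposited scale, and both passed after centring on the 75th percentile, Ctsa at 0.53 (adjusted p = 0.00112) and Ctsb at 0.54 (adjusted p = 0.00176). LSK arrays read 11.00, 11.06 and 11.02 for Ctsa, below all 3 WT GMP arrays (difference 0.18, limma adjusted p = 0.100), and after quantile normalization Ctsa passed at 0.32 (adjusted p = 0.0123). For Ctsb they read 11.90, 11.92 and 12.05, also below WT GMP (difference 0.19, adjusted p = 0.110). The Ctsb probe sets disagreed: 1 of the dimmer ones, at 8.12 to 8.24 in WT GMP against 8.61 to 8.76 in LSK, differed by −0.53 (adjusted p = 0.0289 over all probe sets) and another stood at −0.44 (0.0731), while the other two stood at 0.37 and 0.29. Ctsh (0.23, 95% interval −0.26 to 0.72) did not pass, nor did Ctsk at its background level.

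**Figure D3:**
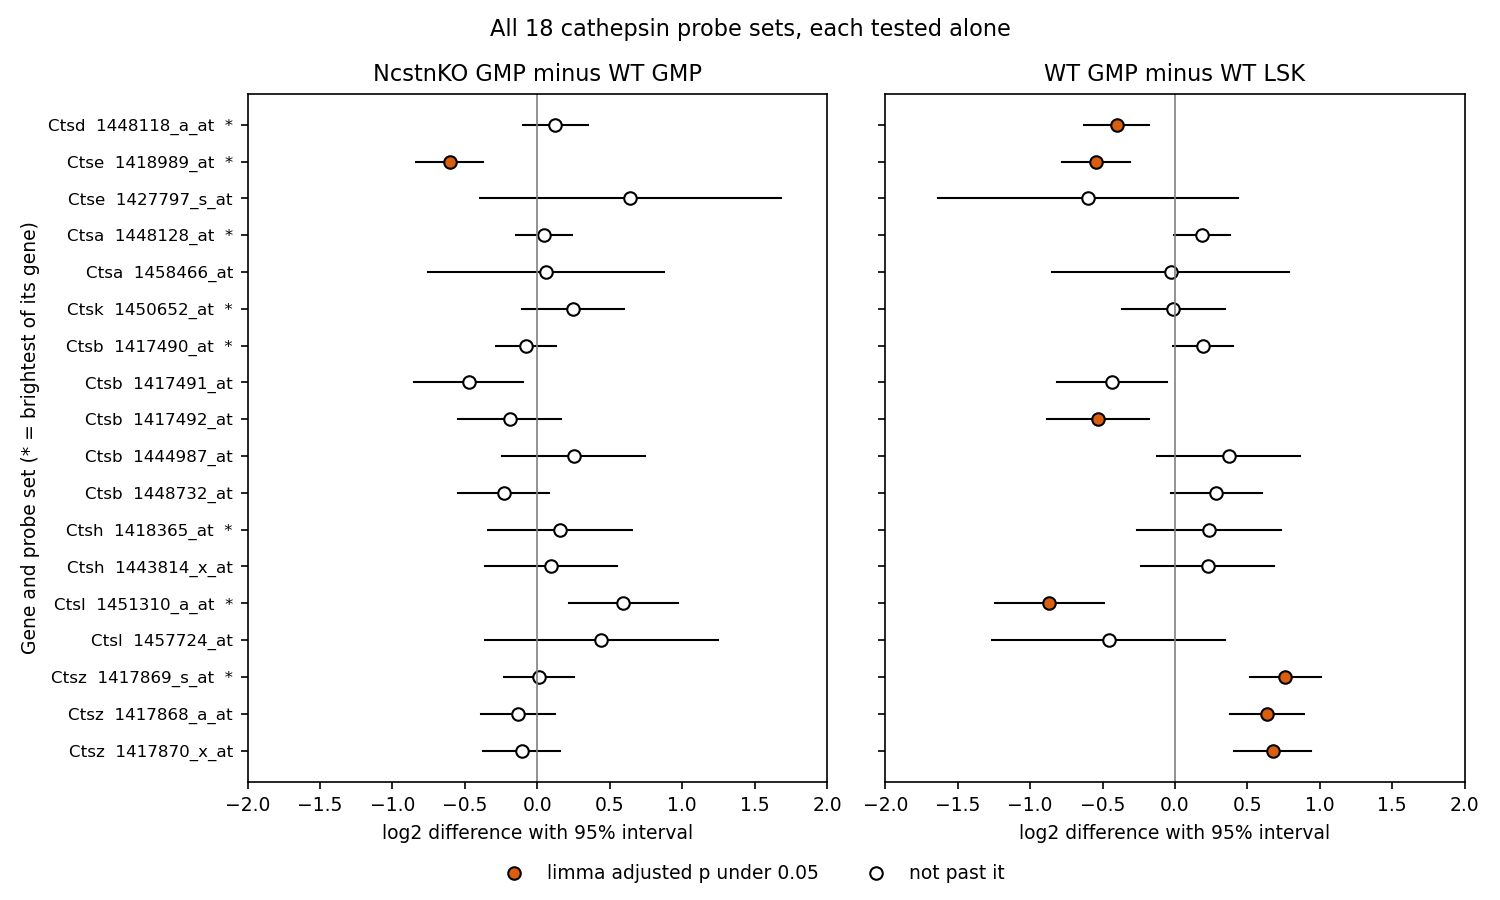
Log2 difference with its 95% interval (x axis) for each of the 18 cathepsin probe sets tested alone, NcstnKO minus WT GMP on the left and WT GMP minus LSK on the right; filled points passed limma at an adjusted p under 0.05. On the left 1 Ctse probe set passed, where 1.75% of all probe sets did, and on the right 3 passed as higher (all of Ctsz) and 4 as lower (of Ctsb, Ctsd, Ctse and Ctsl), where 34.9% of all probe sets did.

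NcstnKO GMP against LSK compares both genotype and cell type at the same time, and shares arrays with each comparison above. Ctsa (0.23, adjusted p = 0.0402) and Ctsz (0.77, adjusted p = 0.000450) were higher and Ctsd (−0.28, adjusted p = 0.0388) and Ctse (−1.15) lower in NcstnKO GMP, so 4 of 8 passed where 46.8% of all genes did (14.6% higher, 32.3% lower). The groups did not overlap in 4 members, as in 56.4% of all genes, and 8 of the 18 probe sets passed alone, as 43.5% of all probe sets did. After quantile normalization 4 were higher and 1 lower. After centring on the 75th percentile 5 were higher (Ctsa, Ctsb, Ctsh, Ctsk and Ctsz) and only Ctse was lower. The Ctsa call was lost when any 1 array was left out except NcstnKO array 1, and the Ctsd call when any 1 was left out except LSK array 1, with adjusted p up to 0.112 and 0.111.

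By a root-mean-square difference of centred log2 values over the 9 arrays, the gene most like Ctse among 16413 searched was Akap11, an anchoring protein for protein kinase A, at 0.0756, followed by Gpatch8 at 0.0901 and Prdm2 at 0.0909. Akap11 averaged 10.6 in NcstnKO GMP, 11.14 in WT GMP, with 11.69 in LSK. The genes most like Ctsl were Il21r, the interleukin-21 receptor gene, at 0.108, and Cep19 and Nabp1, both at 0.122. For Ctsz they were Rpn1, a subunit of the oligosaccharyltransferase that glycosylates secretory proteins, at 0.0499, Erlin1 at 0.0746 and the kinase gene Mapkapk2 at 0.084. Higd2a and Mrpl18, which act in mitochondria, were closest to Ctsa at 0.0188 and 0.0348, and Rbm14 and Txn2 closest to Ctsb at 0.0413 and 0.0442. The nearest to Ctsh were Tyrobp at 0.144 and Mpeg1 at 0.146, the loosest matches of these members. The third gene found for Ctsa, Ctsb and Ctsh (Prm3, Bche and Mup10), and the closest of the 3 found for Ctsd (Adgrb3 at 0.0471), had arrays at or below background. Rprml at 0.0548 and Fgf9 at 0.0595 followed for Ctsd. The arrays fall into 3 groups, so these distances mostly describe the group means.

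The remaining cathepsins did not pass between the genotypes. Of 15 measured genes in a list of other cathepsins and legumain, 0 passed in NcstnKO against WT GMP by limma, with a median of 0.10, and 0 passed in any of the 19 alternatives. Ctsj, which was at background (adjusted p = 0.103), and Ctss (0.30, adjusted p = 0.330) had the smallest p. In WT GMP against LSK, 1 rose and 6 fell, where 7.48% of all genes rose and 30.5% fell. Ctsg, the serine protease of primary granules, rose by a log2 difference of 0.76. Ctsw, known from cytotoxic lymphocytes, fell by 3.66 on the log2 scale (limma adjusted p = 4.48e-06), reading 6.51 to 6.94 in WT GMP against 10.3 to 10.7 in LSK. Ctso and Ctsf fell by 1.15 and 1.71, and Ctss, which processes antigen for MHC class II, was the other fall above background, at −0.77. The 2 others that fell, Ctsj and Ctsm, were at background in every group, as were 8 of the 15 in all, so no size is given for them.

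A pair of inhibitor genes for the cysteine cathepsins was higher in the knockout. Of 14 measured stefins and cystatins 2 rose and 0 fell in NcstnKO against WT GMP, where 2.44% of all genes rose and 3.26% fell. The list's median of 0.05 was near that of all genes, and 7 of the 14 were at background in all groups. Stfa3, a stefin A, read 7.20, 9.32 and 11.00 in NcstnKO GMP, 5.25, 5.84 and 5.26 in WT GMP, and 7.82, 8.48 and 8.50 in LSK. Stfa2l1 read 8.97, 10.06 and 11.33 in NcstnKO GMP, 7.78, 8.20 and 7.54 in WT GMP, and 10.71, 11.28 and 11.20 in LSK. Both were lowest in WT GMP, as Ctsl was, and both were highest within the knockouts on array 3, again as Ctsl was. The genotype difference was 3.73 for Stfa3 (SE 0.78, limma adjusted p = 0.0356) and 2.28 for Stfa2l1 (SE 0.50, 0.0391). Neither passed with sex or the Actb ratio as a covariate, in a fit of the GMP groups alone or without NcstnKO array 2. With a replicate block 1 passed. Stefin genes are close copies of each other, so signal from 1 may come from another. Cstb, the widely expressed stefin B, stood at 0.25 without passing (adjusted p = 0.102), and the abundant secreted inhibitor gene Cst3 at −0.05.

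In WT GMP against LSK, 1 of the 14 inhibitors rose and 5 fell, where 7.48% of all genes rose and 30.5% fell. Cst7, cystatin F, which is targeted to lysosomes and controls cathepsins there, rose by a log2 difference of 1.75 (limma adjusted p = 3.28e-05). Stfa2l1 and Stfa3 fell by 3.23 and 2.82, and Cst6 by 0.75. The remaining falls, Csta1 and Cst13, were at background in all groups.

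**Figure D4:**
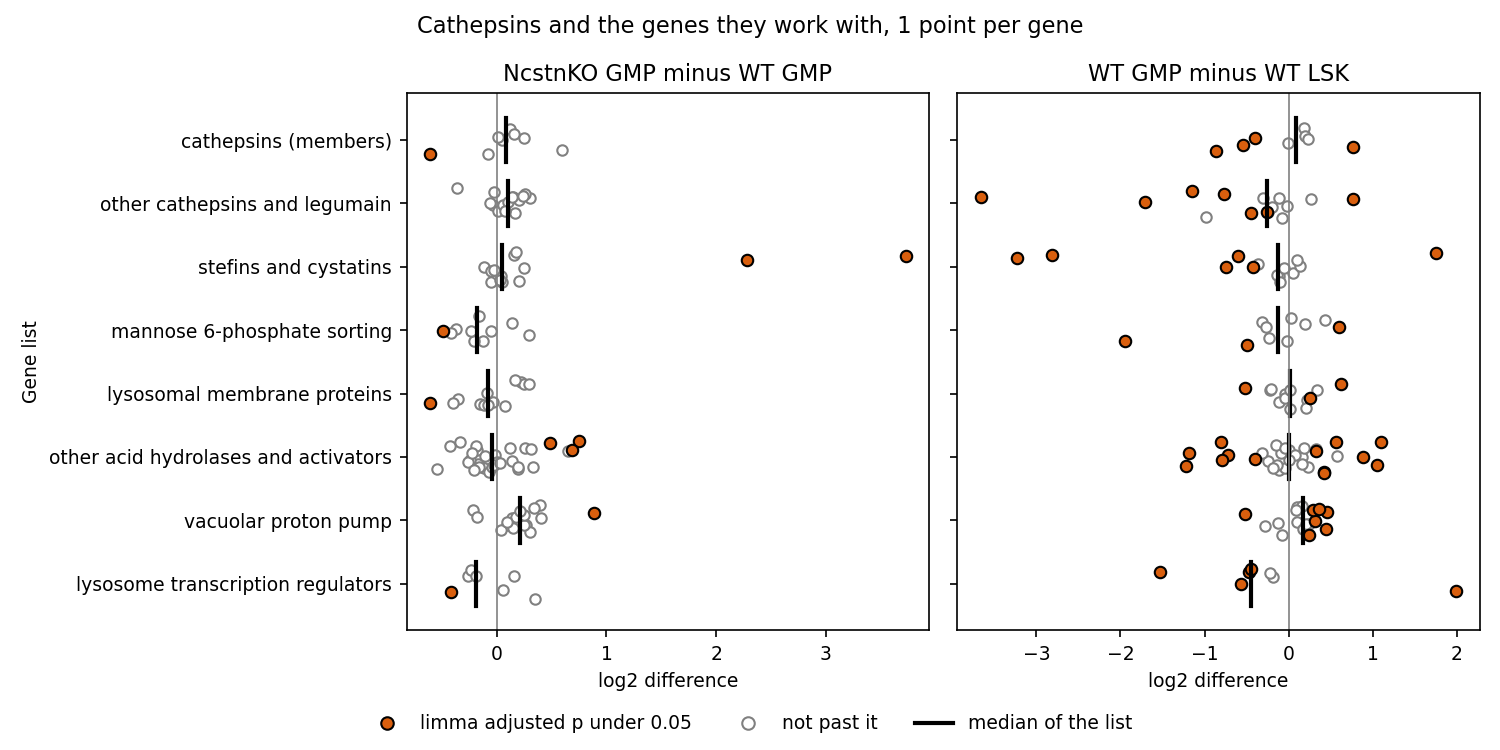
Log2 difference per gene (x axis) for the 8 cathepsins and 7 lists of related lysosomal genes (rows), NcstnKO minus WT GMP on the left and WT GMP minus LSK on the right; filled points passed limma at an adjusted p under 0.05 and black bars are list medians. The 2 points furthest right on the left panel are Stfa2l1 and Stfa3, and the lowest point on the right panel is Ctsw.

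Other lysosomal genes changed singly between the genotypes, where 2.44% of all genes rose and 3.26% fell. Of 31 acid hydrolases and activators 3 rose in NcstnKO GMP: Neu1, the sialidase that cathepsin A protects, by a log2 difference of 0.75 (adjusted p = 0.0479), the α-galactosidase gene Gla by 0.68 (0.0439) and the acid phosphatase gene Acp2 by 0.48 (0.0481). Neu1 read 9.51, 9.91 and 10.14 in NcstnKO GMP, against 9.33, 8.87 and 9.12 in WT GMP, without overlap. Of 17 proton pump genes 1 rose, Atp6v0b, a subunit of the membrane sector (0.89, adjusted p = 0.0194), and the list's median of 0.21 stood beside 0.06 over all genes. Of 13 lysosomal membrane proteins 1 fell, the cholesterol exporter gene Npc1 (−0.60, adjusted p = 0.0286), and of 10 sorting genes 1 fell, the AP-1 adaptor gene Ap1b1 (−0.49, adjusted p = 0.0383). Of 7 transcription regulators of lysosomal genes 1 fell, Foxo3 (−0.41, adjusted p = 0.0424), while Tfeb stood at 0.35, Tfe3 at −0.26 and Mitf at −0.23 without passing. These 9 calls over the 7 lists became 0 without WT GMP array 3, 1 without NcstnKO array 3 or WT GMP array 2 and 5 without NcstnKO array 1, and 2 or 3 without any 1 other array. They were also 0 with sex or the Actb ratio as a covariate and in a fit of the GMP groups alone. They were 6 with quantile normalization or the mean of probe sets, 3 with a replicate block and 8 after centring on the 75th percentile. Without the dimmest 40% of genes they were 11, of which 5 were hydrolases. The 3 hydrolase calls became 0 with the mean of probe sets or the replicate block and 1 with quantile normalization.

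Between WT GMP and LSK the related lists were mixed, where 7.48% of all genes rose and 30.5% fell. Of the 31 hydrolases 7 rose and 6 fell, with Arsb, Hexa and Gla higher by 1.10, 0.88 and 1.06, and the iduronidase gene Idua at −0.73. Of 17 proton pump genes 6 rose and 1 fell, with a median of 0.18 against −0.18 over all genes, among them the accessory subunit gene Atp6ap2 (0.36), Tcirg1 (0.45) and Atp6v0b (0.46), while Atp6v0a2 fell by 0.52. Of 10 sorting genes 1 rose, the sortilin gene Sort1 (0.60), and 2 fell, Igf2r, a mannose 6-phosphate receptor, at −1.95 and Ap1b1 at −0.50. Of 13 membrane proteins 2 rose, the cystine exporter gene Ctns (0.62) and Lamp1 (0.25), and 1 fell, the receptor gene Scarb2 (−0.51). Among the transcription regulators Tfec rose by 1.99, and Tfeb, Tfe3, Foxo1 and Foxo3 fell at −0.57, −0.47, −1.53 and −0.45. All these list values are on the deposited scale, and comparisons with LSK depend on the scaling, as for the members.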

How the data were processed

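RNA from sorted cells, 5 ng per sample, was amplified and hybridised to Affymetrix mouse arrays, 9 in all. The deposited values are linear intensities, normalized by the authors with RMA per the submitters' processing notes. They were taken to log2. A probe set was named where the platform annotation gives 1 symbol, and the brightest probe set stood for its gene (18193 genes). Testing used lmFit and eBayes of limma 3.58.1 (R 4.3.3) on 3 group means, with 6 residual degrees of freedom and Benjamini-Hochberg adjustment over all genes, or over 45037 probe sets where these were tested alone. A gene passed at an adjusted p under 0.05. Precision is limited by how few arrays there are. The labels do not say that replicates came from separate animals, so p-values measure the spread between these arrays.

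The cathepsins and gene lists were chosen with earlier results of these data known, and 23 listed genes were not analysed here. All members were named, as were up to 4 genes of each list that passed in a comparison, by smallest p (up to 2 where none passed), and the 3 genes nearest in pattern to each member above background. Ctsm, Csta1, Cstb, Cst3, Tfeb, Mitf, Kit and markers at background fall outside this rule and were chosen after their values were seen. The background limit was set after the data were seen, and so were the call counts of the lists under the alternatives. Replicate numbers are shared by the groups: deviations from the group means correlated at 0.219, 0.238 and 0.291 for same-numbered WT GMP and LSK arrays, which pairs them, but not for NcstnKO GMP.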

Additional observations from a re-analysis of the deposited data

How the results depend on the processing

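Over 453 alternatives for single cathepsins, 375 kept direction and side of the threshold, 44 no longer passed, 12 newly passed and 22 changed sign; the causes were not tested. In NcstnKO against WT GMP the count of 1 cathepsin became 2 without the dimmest 40% of genes and 2 with a replicate block, and 0 when probe sets were averaged, in a fit of the GMP groups alone, with label sex, transcript sex or the Actb ratio as covariates, or on only the arrays whose sex transcripts go with the labels; leaving out 1 array gave 0 to 1. In WT GMP against LSK the count of 4 became 1 on those arrays and stayed at 4 with the replicate block. In NcstnKO GMP against LSK the count of 4 became 2 with the mean of probe sets, 2 with the fit of these groups alone, 2 with the replicate block and 1 on those arrays, and 2 to 3 with 1 array left out; it rose to 5 with quantile normalization and 6 with centring on the 75th percentile, where Ctsb (0.50), Ctsh (0.77) and Ctsk (0.615) newly passed.

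Sign changes in NcstnKO against WT GMP were Ctse at 0.019 and Ctsz at −0.076 (mean of probe sets), Ctsa at −0.020 and Ctsz at −0.10 (label sex), Ctsd at −0.021 and Ctsz at −0.051 (Actb ratio), and Ctsa at −0.036 and Ctsk at −0.10 (arrays whose sex transcripts go with the labels). With 1 array left out, Ctsh ranged from −0.065 to 0.32 and Ctsz from −0.024 to 0.045. In WT GMP against LSK, Ctsk, which was at background in both, stood at 0.24 (quantile), 0.34 (75th percentile), 0.083 (Actb ratio) and 0.31 (matching arrays), and from −0.17 to 0.10 with 1 array left out. Ctsb stood at −0.024 (mean of probe sets) and Ctsh at −0.21 (matching arrays). In NcstnKO GMP against LSK, Ctsd stood at 0.10 and Ctsl at 0.11 (75th percentile), and Ctsb at −0.17 (mean of probe sets). With 3 arrays a group and members such as Ctsk at background, small differences could not be resolved.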
